A study of Mus musculus with 12 samples.

Results

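The DNA of a pair of primary mouse pancreatic ductal adenocarcinoma (PDAC) lines was read at 10 genes of the Lin28/let-7 axis: Lin28a and Lin28b, the decay enzyme gene Dis3l2, the processing genes Drosha, Dgcr8 and Dicer1, and the let-7 targets Hmga2, Igf2bp1, Igf2bp2 and Igf2bp3. They were chosen by name, and all 10 were found among the 22035 distinct gene names of the segment table of each line. Of those names, 20947 lay on autosomes within 1 segment of each line and served as the background.

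The lines, 15376T and 14837T, came from genetically engineered C57BL/6 mice. According to the study's methods, the mice carried p48-Cre, which acts in the pancreatic lineage, ROSA_rtTA, a floxed Trp53 allele beside a wild-type allele and an oncogene transgene that doxycycline switches on, and the cells were kept in medium with doxycycline. The labels give the genotype of both lines as WT, so nothing in them sets the lines apart but their names. Whole-exome sequencing (WES) was done on 1 library per line, at a mean autosomal depth of 43.4 and 47.5 reads. There are therefore no replicates, and no difference between the lines could be tested, nor can line and mouse be told apart. The wild-type tail library and the RNA libraries were not analysed here, and cell type markers cannot be checked in DNA. The labels name a human exome kit for this mouse DNA, and its effect on depth was not tested.

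Let-7 microRNAs are cut out of long primary transcripts in the nucleus by the Microprocessor, made of Drosha and Dgcr8, and trimmed in the cytoplasm by Dicer1. Lin28a and Lin28b bind the loop of let-7 precursors and block this maturation, and precursors that Lin28 marks for uridine tailing are degraded by the exonuclease Dis3l2. Mature let-7 represses growth and fetal-type genes, among them Hmga2, the Igf2bp genes and the Lin28 genes themselves, so that Lin28 and let-7 oppose each other.

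The sequences below, from RefSeq on GRCm38.p6 and written 5′ to 3′, show what the products of these genes act on. In the mature let-7 strands, capitals mark the seed, bases 2 to 8, which pairs with targets such as Hmga2 and the Igf2bp transcripts. The same 7 bases stood in all 9 distinct mature strands from the left arm of the family, miR-98 included.
let-7a-5p: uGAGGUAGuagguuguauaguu
let-7e-5p: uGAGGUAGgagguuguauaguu
let-7i-5p: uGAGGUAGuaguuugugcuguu
miR-98-5p: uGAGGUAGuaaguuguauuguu

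In the hairpins, capitals mark GGAG, the motif of the loop that Lin28 recognizes. It was searched on the transcribed strand only and stood after the left arm in 9 of 12 let-7 family hairpins. It is a short motif, and 447 of 1005 mouse hairpins (44.5%) held it somewhere. The let-7i hairpin, from chr10:122985640-122985724 on the minus strand, is shown because its gene shares a copy-number segment with Hmga2. The let-7b hairpin, from chr15:85707319-85707403 on the plus strand, has no GGAG and is shown for contrast.
let-7i hairpin: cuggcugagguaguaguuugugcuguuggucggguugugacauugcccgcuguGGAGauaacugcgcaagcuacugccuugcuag
let-7b hairpin: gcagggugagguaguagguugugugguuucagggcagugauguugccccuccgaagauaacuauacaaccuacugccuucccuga

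Every copy-number value below belongs to a segment, a stretch of neighbouring capture bins with a common log2 ratio of coverage over a reference. Had every cell lost 1 of 2 copies, the log2 would be -1, and 3 copies in place of 2 a log2 of 0.58. The deposited calls put a loss at a log2 of -0.25 or less and a gain above 0.2. Copy numbers named below are these calls. The ploidy of the lines and the share of cells with a change were not tested. In each line, the log2 of segments called at 2 copies had an SD of 0.090 (103 segments, 15376T) and 0.095 (96 segments, 14837T), which is a spread between segments and not a replicate error. Losses were deeper in 15376T, with a median lost segment at -0.53, against -0.39 in 14837T, and gains were likewise further from 0, at 0.48 against 0.34.

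In 15376T, 3 of the 10 genes were called lost (Lin28a, Dgcr8 and Igf2bp2), 7 were at 2 copies and 0 were gained. Over all background genes in that line, 30.1% were lost and 9.09% gained. In 14837T, 4 of the 10 were lost (the same 3 and Hmga2), 5 were at 2 copies and 1 was gained (Drosha), beside 28.8% lost and 21.4% gained in the background. Hmga2 and Drosha were the 2 genes with a different call in the lines, where 29.3% of background genes differed. These shares of the 10 genes lie near the background. Dgcr8 and Igf2bp2 share a segment, so the 10 genes rest on 9 segments per line. Their median log2 was -0.068 in 15376T and -0.064 in 14837T, beside -0.023 and -0.045 over all background genes.

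**Figure D1:**
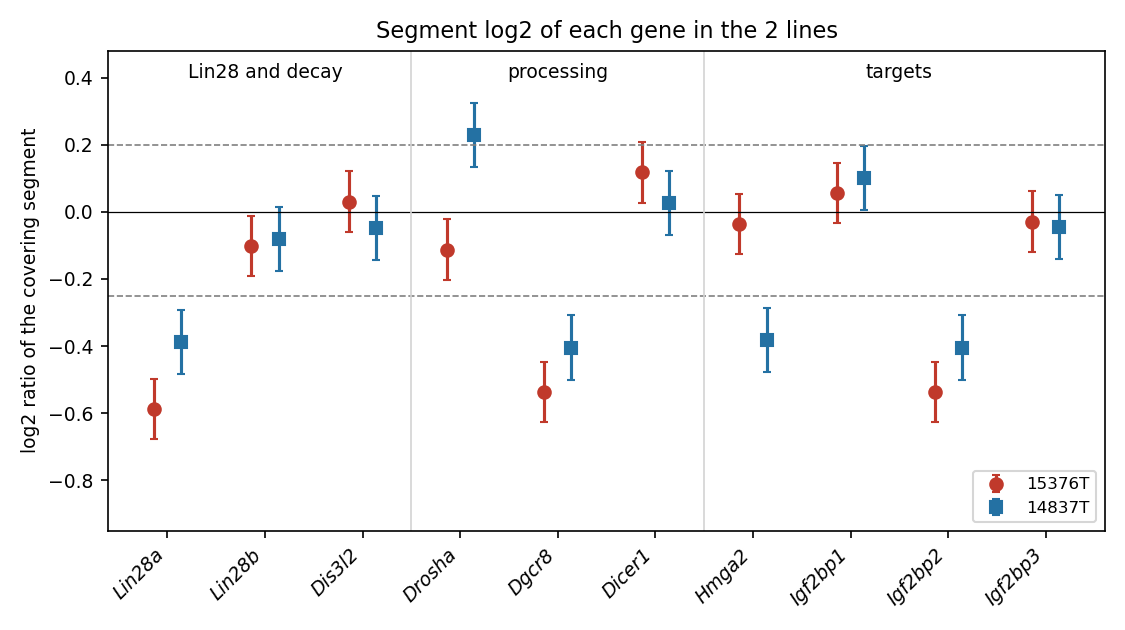
Log2 ratio of the segment covering each gene in 15376T (red circles) and 14837T (blue squares), with error bars of 1 SD of the segments called at 2 copies in that line and dashed lines at the call thresholds of 0.2 and -0.25. Lin28a, Dgcr8 and Igf2bp2 lie under the loss threshold in both lines, Hmga2 in 14837T alone, and Drosha is above the gain threshold in 14837T alone.

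The Lin28 genes stood at different copy numbers. Lin28b, the paralogue that the study is about, was at 2 copies in each line. Its segment log2 was -0.10 in 15376T and -0.080 in 14837T, and the segment depth was 41.5 and 44.2 reads. Neither value lies far from 0, and their difference of -0.021 is small among background genes, of which 10.0% had a smaller one. Lin28b spans chr10:45376617-45486314 (GRCm38.p6) and lies between Bves and Hace1 in the gene column. Its segment ran from 3120192 to 57862307 in each line, with 3097 bins over 54.7 Mb. No segment border thus came nearer to Lin28b than 12.4 Mb. The segment was the first of its chromosome, and the next began at 58235487 in each line, after a gap. A gap with the same borders in each line occurred on the chromosome of every gene read here. Whether such borders are breakpoints was not tested. The gene tables list only genes in segments with an absolute log2 of about 0.40 or more, and Lin28b is in neither, so a change of Lin28b alone was not detectable here.

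Lin28a, the paralogue that recruits uridylyltransferases in the cytoplasm, was called at 1 copy in each line. Its segment log2 was -0.59 in 15376T, at a depth of 29.8, and -0.39 in 14837T, at a depth of 35.5. Both values are below the loss threshold, and 15376T is the lower by 0.199, a difference larger than in 62.2% of background genes. Divided by the mean depth of its library, the segment depth was 0.686 and 0.746. The gene spans chr4:134003330-134019196, between Dhdds and Crybg2. In 15376T its segment ran from 3173523 to 146117266, and all 4 segments of chromosome 4 were lost, over 153 Mb. In 14837T the segment began at 63235266, in Col27a1, beside a segment at 2 copies (log2 -0.091), and the lost run of 4 segments went on to 156255511. Lin28a thus lay 70.8 Mb from the left border of the loss in 14837T and 22.2 Mb from its right end. The segment to the right of that of Lin28a was lost in both lines.

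Dis3l2, which digests oligouridylated let-7 precursors, was at 2 copies in each line. Its log2 was 0.031 in 15376T and -0.048 in 14837T, at depths of 45.9 and 44.5. The difference of 0.078 is close to the SD of 0.074 among the 8682 background genes at 2 copies in both lines. The gene (chr1:86701924-87050097) lies between Nppc and Alppl2, with 12.4 Mb to the nearest left border and 8.26 Mb to the nearest right border of its segments.

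The nuclear processing genes Drosha and Dgcr8, whose products work as a complex, were not called alike in either line. Drosha, the ribonuclease that cuts primary microRNAs, had a log2 of -0.11 in 15376T (2 copies, depth 40.2) and 0.23 in 14837T (3 copies, depth 54.8). The 14837T value is only slightly above the gain threshold of 0.2 and was no gain at an absolute log2 of 0.3, and the difference of -0.340 is larger than in 79.5% of background genes. The ratio of the segment depths, each over the mean of its library, gave -0.315 on the log2 scale. Drosha (chr15:12824804-12935291, between 6030458C11Rik and Cdh6) lay in the first segment of its chromosome in both lines. That segment ended at 54844576 in 15376T, at Enpp2, where a gained segment followed (log2 0.47). In 14837T it ended at 41788512, at Oxr1, and the next segment was at 2 copies (log2 0.10).

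Dgcr8, the RNA-binding partner of Drosha, was called at 1 copy in each line. The log2 of its segment was -0.54 in 15376T and -0.40 in 14837T, and the segment depth was 32.8 and 37.9. Both lie under the loss threshold, and the difference of -0.132 exceeds that of 50.4% of background genes. The segment, chr16:3592388-24292907 with 2574 bins, was the first of its chromosome in each line and ended before a gap that the lines share. The remaining segment of chromosome 16 was lost too, with a log2 of -0.65 in 15376T and -0.49 in 14837T. Dgcr8 (chr16:18253948-18289251) follows Trmt2a, and Mir1306, a microRNA gene at 18284239 to 18284317, lies inside it. Mir1306 has 1 bin, with a depth of 46.5 in 15376T and 49.8 in 14837T, which falls within the stretch over which Dgcr8 itself was measured.

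Dicer1, which trims precursor hairpins to the mature duplex, was at 2 copies in each line. Its log2 was 0.12 in 15376T and 0.025 in 14837T, at depths of 49.6 and 51.9. The difference of 0.092 is larger than in 44.2% of background genes. The gene (chr12:104687740-104751968) lies between Gsc and Clmn. Its segment was 74.6 Mb long with 5491 bins in 15376T, and 4.98 Mb with 437 bins in 14837T, where the nearest border was 1.67 Mb away. The 14837T segment was thus the smallest that covered any of the 10 genes, and both of its neighbours were at 2 copies, with log2 values of 0.18 and 0.15.

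**Figure D2:**
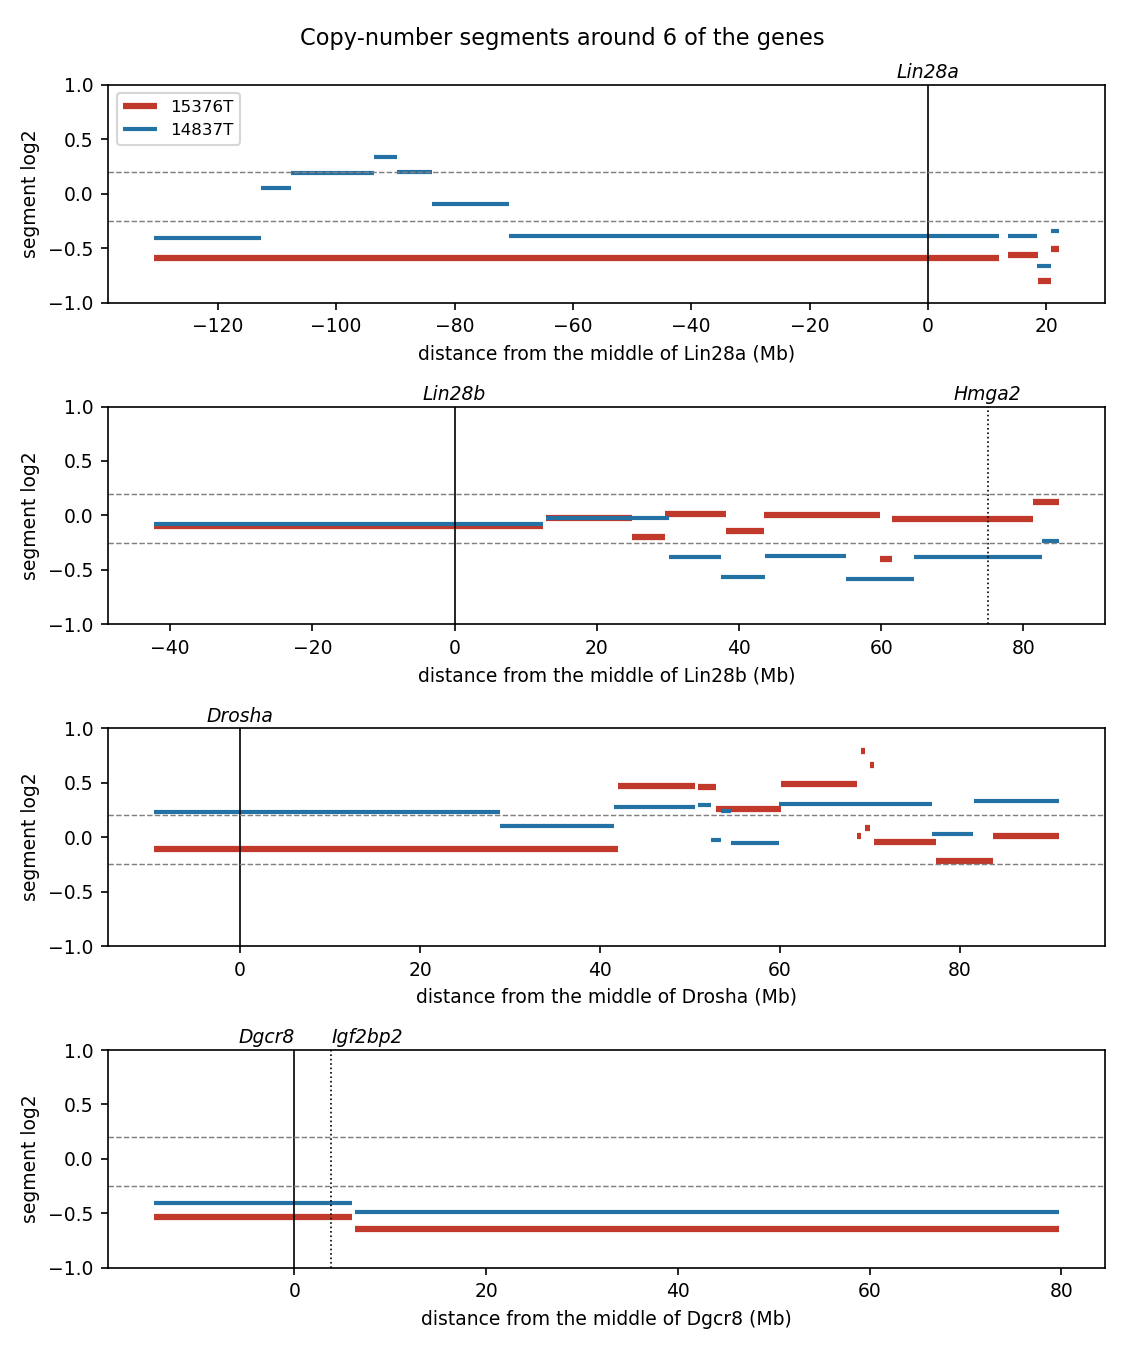
Segment log2 along the chromosomes of Lin28a, of Lin28b and Hmga2, of Drosha, and of Dgcr8 and Igf2bp2, against the distance in Mb from the middle of the first-named gene, in 15376T (red) and 14837T (blue), with dashed lines at the call thresholds of 0.2 and -0.25. Lin28b lies in the first segment of its chromosome, which ends before the same gap in both lines. Hmga2, 74.9 Mb further on, lies in a run of 5 lost segments in 14837T.

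Among the let-7 targets, Hmga2, an architectural chromatin factor of fetal tissue, had with Drosha the largest differences of the 10 genes. By log2 as deposited and by segment depth Hmga2 came first, and with log2 recentred on the autosomal median Drosha did (-0.349, beside 0.339 for Hmga2). Hmga2 was called at 2 copies in 15376T, with a log2 of -0.035 and a depth of 44.9. In 14837T it was called at 1 copy, with a log2 of -0.38 and a depth of 37.1. The difference of 0.348 exceeds that of 80.8% of background genes, and the depths of the segments gave 0.407. Hmga2 spans chr10:120361268-120476469, follows Llph in the gene column and has Mir763 within it. In 14837T the loss ran over 5 segments with log2 values from -0.58 to -0.37, from 75639546, in Susd2, to 128029864, with Prim1 as its last gene, which is 52.4 Mb with 5317 bins. The segment before this run was at 2 copies (log2 -0.019), and so was the segment after it, at -0.23 just above the loss threshold. In 15376T the segment to the left of that of Hmga2 was called lost (log2 -0.40), but it ended at 106937350, 13.4 Mb before the gene.

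Lin28b and Hmga2, the inhibitor of let-7 and a target of let-7, lie on the same chromosome with 74.9 Mb between them. In 15376T the log2 of Hmga2 was 0.066 above that of Lin28b. In 14837T it was 0.302 below it. The loss in 14837T therefore included Hmga2 and began 30.2 Mb after the end of Lin28b. The gene of let-7i, 2.51 Mb past Hmga2, was in the same segment as Hmga2 in each line and so had its calls, 2 copies in 15376T and 1 in 14837T.

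The Igf2bp genes code for RNA-binding proteins of the same family, and each lies on its own chromosome. Igf2bp2, the member that stays on in many adult tissues, was lost in both lines, with the segment values of Dgcr8 (log2 -0.54 and -0.40). It spans chr16:22059009-22163299, between Ndufa11b and Tra2b, 3.77 Mb from Dgcr8 and 2.13 Mb from the right border of the segment, at Bcl6. Igf2bp1, a fetal member, was at 2 copies in both, and its log2 was 0.056 in 15376T and 0.10 in 14837T, at depths of 49.3 and 50.6. Its difference of -0.044 became 0.097 with segment depths in place of log2, and neither exceeds the combined SD of 0.131 of the segments at 2 copies in the lines. Igf2bp1 (chr11:95957163-96005944, between B4galnt2 and Gip) lay in a segment of 96.5 Mb with 11932 bins in 15376T and of 6.02 Mb with 1492 bins in 14837T. Both end at 99620437, before a gap that the lines share.

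Igf2bp3, the other fetal member, was at 2 copies in each line as well. Its log2 was -0.029 in 15376T and -0.045 in 14837T, at depths of 45.3 and 46.9, and the difference was 0.016, or 0.083 by segment depth. It lies at chr6:49085218-49215469 between Malsu1 and Tra2a, in a segment that ran from 39410028 to 60397692 in 15376T and over 127 Mb in 14837T. The fetal-type members Igf2bp1 and Igf2bp3 thus differed from Igf2bp2 in call within both lines.

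In order of log2, 15376T ran from Lin28a (-0.59) and the segment of Dgcr8 and Igf2bp2 (-0.54) to Drosha (-0.11), Lin28b (-0.10), Hmga2 (-0.035), Igf2bp3 (-0.029), Dis3l2 (0.031), Igf2bp1 (0.056) and Dicer1 (0.12). The step from Dgcr8 and Igf2bp2 to Drosha is the only one between neighbours in this order that is larger than the SD of 0.090. In 14837T the order ran from Dgcr8 and Igf2bp2 (-0.40), Lin28a (-0.39) and Hmga2 (-0.38) to Lin28b (-0.080), Dis3l2 (-0.048), Igf2bp3 (-0.045), Dicer1 (0.025), Igf2bp1 (0.10) and Drosha (0.23). There the steps from Hmga2 to Lin28b and from Igf2bp1 to Drosha are larger than the SD of 0.095.

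The genes' own depths could be read only where a gene table lists them: Lin28a in 15376T, and Dgcr8 and Igf2bp2 in both lines. Lin28a and Hmga2 in 14837T, at log2 values of -0.39 and -0.38, fell just short of the level of listing. Lin28a had a mean depth of 25.7 reads over 5 bins in 15376T, where its 137 neighbours in the same segment within 5 Mb and with at least 5 bins had a median of 30.2. The log2 ratio of -0.23 lies within the SD of 0.435 that 4535 genes showed around their neighbours, and 94 of the 137 neighbours were deeper.

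Igf2bp2 had an own depth of 31.0 reads in 15376T and 36.4 in 14837T over 19 bins, beside medians of 34.6 and 40.6 over 79 neighbours, which gave log2 ratios of -0.16 and -0.16. Dgcr8 had 44.0 and 53.6 over 14 bins, beside medians of 37.1 and 42.3 over 103 neighbours, with log2 ratios of 0.25 and 0.34. Igf2bp2 was thus below and Dgcr8 above its surroundings in both lines. Every value with this window of 5 Mb lies within the spread between genes, an SD of 0.435 in 15376T and 0.417 in 14837T. With neighbours within 2 Mb, Dgcr8 was at 0.41 in 15376T, within an SD of 0.433, and at 0.45 in 14837T, past an SD of 0.417. Igf2bp2 was then at -0.32 and -0.33. Set between the lines, the own depth ratio differed from the segment difference by 0.033 for Igf2bp2 and -0.021 for Dgcr8, where 1997 genes listed in both lines had an SD of 0.149. The spread between genes is about the size of a called loss, since the median lost segment was at -0.53 in 15376T and -0.39 in 14837T. A change of a listed gene alone could thus lie within that spread. The comparison between the lines cannot show a change that both share. Whether the listed genes depart from their segments was therefore not settled here.

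**Figure D3:**
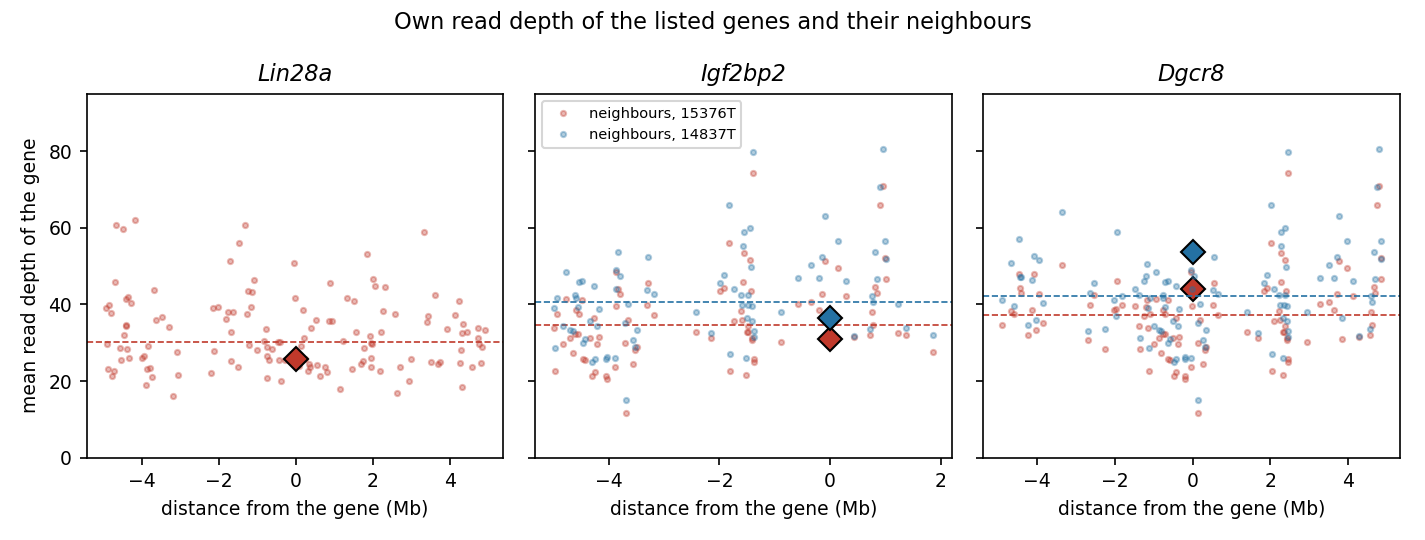
Mean read depth of Lin28a, Igf2bp2 and Dgcr8 (diamonds) and of genes of the same segment within 5 Mb (dots), against the distance from the gene in Mb, in 15376T (red) and 14837T (blue), with dashed lines at the neighbours' medians. Each gene lies inside the cloud of its neighbours, Dgcr8 in its upper part, with 20 of 103 neighbours deeper in 15376T and 13 in 14837T.

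At variant sites, the share of reads with the alternative base, called the B-allele fraction (BAF), had an autosomal median of 0.077 in 15376T and 0.061 in 14837T. In 15376T the segment of Igf2bp1 had a BAF of 1, above 95.6% of the autosomal length with a value, although its log2 of 0.056 was that of 2 copies. In 14837T the segment of Igf2bp1 had a BAF of 0.056, but segments of the same chromosome from 71285792 to 89088733, before the gene, had values of 0.97 to 1. For Igf2bp3 the higher value was that of 14837T, with 0.065 in 15376T and 0.40 in 14837T, the latter above 91.0% of the length. The value of 0.40 belongs to a segment of 127 Mb. In 15376T, segments from 38.0 to 81.2 Mb past Igf2bp3, within the same stretch, had values of 0.74 to 1. Whether the contrast at Igf2bp3 comes from where the segments were cut was not tested. For Dgcr8 and Igf2bp2 the shared segment had 0.27 in 15376T and 0.072 in 14837T, and was called at 1 copy in each. The other genes lay between 0.022 and 0.114 in both lines, and Lin28b in 15376T, at 0.023, was lower than nearly all of the autosomal length, since 0.223% was below it. The tables used give no number of variants behind a BAF, and a change in the tumor cannot be told apart from a difference between the mice.

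**Figure D4:**
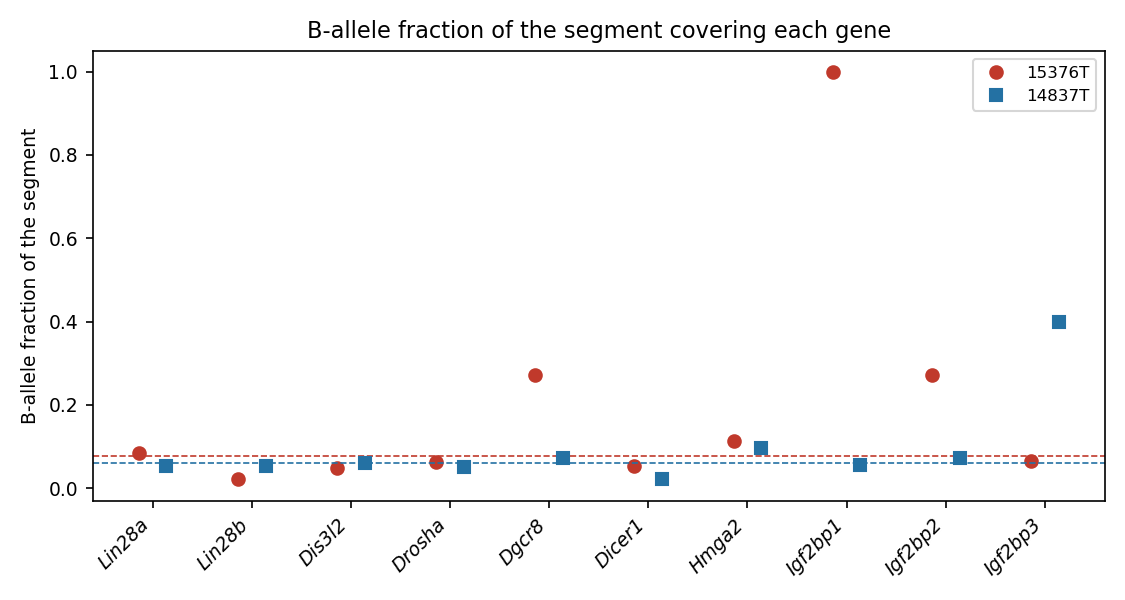
B-allele fraction of the segment covering each gene in 15376T (red circles) and 14837T (blue squares), with dashed lines at the autosomal medians of 0.077 and 0.061. Igf2bp1 stands at 1 in 15376T and Igf2bp3 at 0.40 in 14837T, and Dgcr8 and Igf2bp2 share 0.27 in 15376T.

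Around the 10 genes, 4 lists with 56 genes in all, the 10 included, were read in the same way. In 15376T 8 were gained (14.3%, beside 9.09% of background genes), 28 at 2 copies and 20 lost (35.7%, beside 30.1%). In 14837T 16 were gained (28.6%, beside 21.4%), 22 at 2 copies and 18 lost (32.1%, beside 28.8%). Of the 56, 22 had a different call in the lines (39.3%, beside 29.3%), 15 with the higher call in 14837T and 7 with the higher call in 15376T. The higher call was thus that of 14837T in 68.2% of the differing list genes, beside 71.8% of the 6128 differing background genes. Genes that share a segment share its value, and the 56 genes lie in 38 segments in 15376T and 41 in 14837T.

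The nuclear steps had 10 genes, of which 1 was gained and 1 lost in 15376T and 6 were gained and 2 lost in 14837T. In the background 9.09% were gained and 30.1% lost in 15376T, and 21.4% and 28.8% in 14837T. Their median log2 was 0.030 and 0.267, beside -0.023 and -0.045 over background genes. Besides Drosha, the genes at 2 copies in 15376T and 3 in 14837T were Khsrp and Hnrnpa1, which bind the loop of primary let-7 (log2 -0.0025 and 0.31, and 0.0092 and 0.33), Xpo5, the exporter of precursor microRNAs (-0.019 and 0.32), and Adar, an RNA-editing enzyme (0.097 and 0.62). Ddx17, a helicase of the Microprocessor, was gained in both lines (0.49 and 0.31). The genes gained in 14837T lie on few chromosomes: Drosha, Ddx17 and Hnrnpa1 on 15, Khsrp and Xpo5 on 17, and Adar on 3. Ran, the GTPase that export by Xpo5 needs, was at 2 copies in 15376T (0.054) and called lost in 14837T (-0.29), a call that ended at an absolute log2 of 0.3 and with log2 recentred on the autosomal median. With Dgcr8 lost in both lines, Drosha was thus the only Microprocessor core gene above 2 copies, and in 14837T alone.

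Among 10 genes of the Dicer and Argonaute steps, 2 were gained and 4 lost in 15376T, and 3 were gained and 4 lost in 14837T, beside the same background shares of 9.09% and 30.1%, and of 21.4% and 28.8%. Only Tarbp2, the RNA-binding partner of Dicer1, had a different call, with a log2 of 0.0092 and 0.33. It shares its segment, and so these values, with Hnrnpa1 in each line. The Argonaute genes Ago1, Ago3 and Ago4 lay in the lost segment of Lin28a in both lines and had its values (log2 -0.59 and -0.39), and Tnrc6a, a silencing partner of the Argonautes, was lost in both as well (-0.53 and -0.46). The remaining Argonaute gene, Ago2, and Tnrc6b, a relative of Tnrc6a, went the other way. Both lay in the segment of Ddx17, which was gained in each line (0.49 and 0.31).

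Of the 7 genes of tailing and decay, 2 were lost in 15376T and 4 in 14837T, and 0 were gained in either line. The background shares lost were 30.1% and 28.8%, and those gained 9.09% and 21.4%. Tut4, which adds the uridines to precursors held by Lin28a, was in the lost segment of Lin28a in both lines. The list genes Tut7 (log2 -0.036 and -0.47) and Tent2 (-0.091 and -0.53) were at 2 copies in 15376T and lost in 14837T. Both lie on chromosome 13, in neighbouring segments. In 14837T, Lin28a, Tut4, Tut7 and Tent2 were thus called at 1 copy, and Lin28b and Dis3l2 at 2. The 4 lost genes lie in 3 segments, on chromosomes 4 and 13 alone, and are not separate losses.

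Among 29 let-7 targets, 5 were gained and 13 lost in 15376T, and 7 were gained and 8 lost in 14837T, with 13 different calls. As shares, 17.2% were gained and 44.8% lost in 15376T (background 9.09% and 30.1%), 24.1% gained and 27.6% lost in 14837T (21.4% and 28.8%), and 44.8% differed in call (29.3%). Lost in 15376T and at 2 copies in 14837T were Trim71 (log2 -0.59 and -0.075), a stem cell ubiquitin ligase, Arid3b (-0.53 and -0.029), Cdc25a (-0.46 and 0.10), a cell-cycle phosphatase, and Insr and Irs2 of the insulin pathway, which share a segment (-0.60 and -0.072). Mycn (-0.42 and 0.20) and Tgfbr1 (-0.59 and 0.20) were lost in 15376T and called at 3 copies in 14837T, in both cases barely above the gain threshold, and these gains ended at an absolute log2 of 0.3. Myc was gained in both lines (0.47 and 0.28), in 14837T again only below that threshold.

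Hmga1, the paralogue of Hmga2, was at 2 copies in 15376T (log2 0.074) and gained in 14837T (0.34), the opposite direction to Hmga2. Arid3a (0.010 and -0.38), in the first segment of the lost run of 14837T that ends past Hmga2, had the calls of Hmga2. Fas, a death receptor, was gained in 14837T alone (-0.030 and 0.36), and Ccnd2 in 15376T alone (0.33 and -0.045), where the 14837T segment is that of Igf2bp3. Igf1r (-0.53 and -0.59) and Ccnd1, the gene of cyclin D1 (-0.53 and -0.44), were lost in both lines, and so was E2f2, which lies within 5 Mb of Lin28a and shares its segment.

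**Figure D5:**
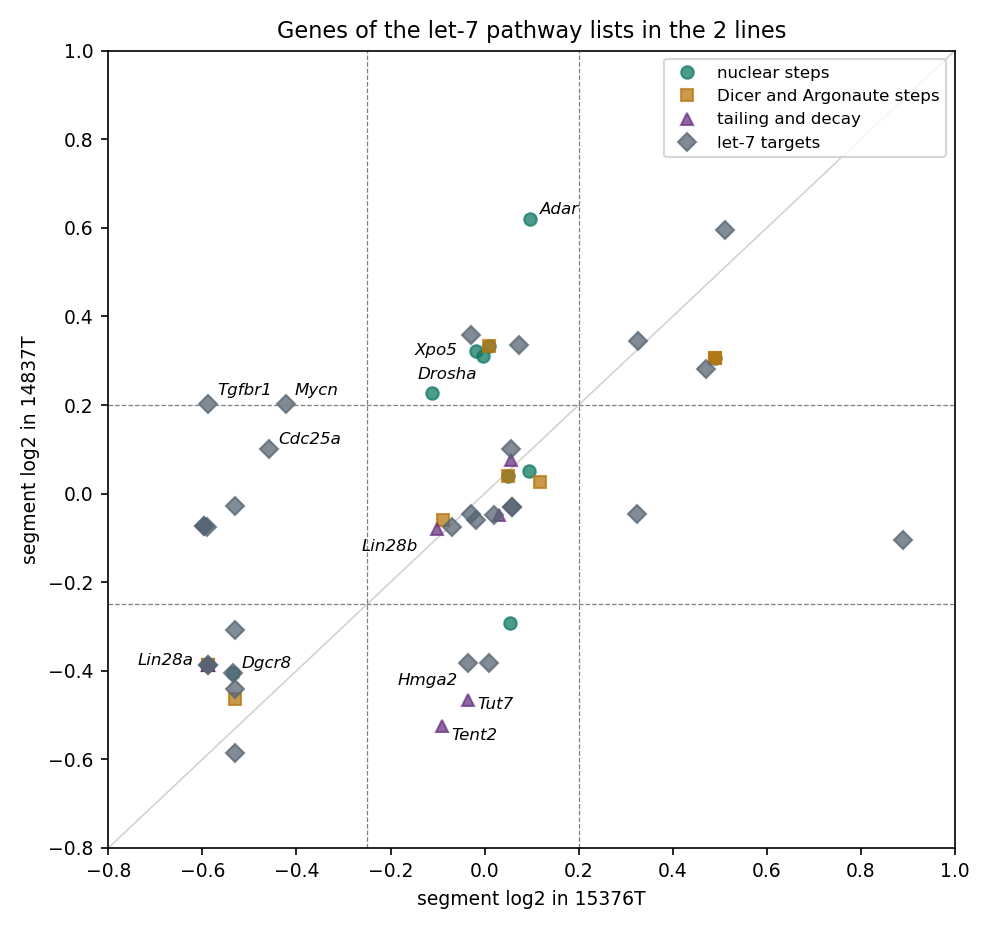
Segment log2 in 14837T against 15376T for the 56 genes of the 4 lists, with dashed lines at the call thresholds of 0.2 and -0.25 and a grey line where both lines are equal; genes of 1 segment fall on the same point. Drosha, Xpo5 and Adar stand above the gain threshold of 14837T only, and Hmga2, Tut7 and Tent2 below its loss threshold only.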

How the data were processed

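WES libraries of lines 15376T and 14837T (1 each) were analysed from 2 tables per line that the authors deposited: copy-number segments and a list of genes. The deposited log2 values set the coverage of a segment against a copy-number reference. The deposited BAF is a fraction from 0 to 1. The deposited depth is a coverage signal without normalization, and copy numbers and bin numbers were used as the authors gave them. Per the labels the build is mm10. The aligner, the copy-number program and its reference are not given in the sources used here. The labels and the methods name different human exome kits.

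Each gene took the values of the segment that names it. Gene positions, and microRNA sequences, are from RefSeq on GRCm38.p6, which matched the gene tables for 99.2% and 99.6% of names, and positions count from 1. Copy-number calls followed thresholds of -0.25 and 0.2 with 0 exceptions. Own depths were set against neighbours of the same segment within 5 Mb, with at least 5 bins. Scripts used Python 3.11.15, numpy 2.4.6 and pandas 2.3.3 and were tested on simulated data.

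All members were named, with list genes that had a different call, an absolute log2 of at least 0.5 or a place within 5 Mb of a member, and let-7i, Ddx17, Ago2, Tnrc6b and Myc, chosen after their values were seen. The members and lists were chosen with earlier results of these data known. Some list genes are counted but not reported by name. The alternatives were other call thresholds, recentred log2, segment depths, and other neighbour windows and bin minimums.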

Additional observations from a re-analysis of the deposited data

How the results depend on the processing

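With calls at an absolute log2 of 0.3, the gain of Drosha in 14837T was lost, which left 0 of the 10 genes gained in that line and 1 with a different call (Hmga2). At an absolute log2 of 0.5, 14837T had 0 of the 10 genes gained, 0 lost and 10 at 2 copies, since its median lost segment was at -0.39. The 3 losses of 15376T were past this threshold. The genes with a different call were then these 3, Lin28a, Dgcr8 and Igf2bp2, and no longer Hmga2 and Drosha. Of the 56 list genes, 2 were then gained in 15376T, and in 14837T 2 were gained, 2 lost and 52 at 2 copies. Recentring changed no call of the 10 genes and, among the lists, that of Ran in 14837T, from lost to 2 copies. Of 64 alternative values for single genes, 63 moved by less than the spread used for them. The other was the difference of Igf2bp1, -0.044 by log2 and 0.097 by segment depth, and that of Lin28b also changed sign, from -0.021 to 0.043, with all of these values within the combined SD of 0.131. The 64 include recentred values, but recentring shifts all genes of a line by the same amount, at most 0.049. That is below the spreads used, so these values could not move past them. The gene tables repeat the log2 of the segments, which makes that alternative void, although its values are among the 64 too. The count of 63 is therefore no measure of robustness. With 1 library per line, no replicate could be left out. No paired analysis was possible because a line is a single library and the values come without a test. A change within a segment was not detectable for the 7 genes that no gene table lists, and for the listed genes it could hardly be told from the spread between genes.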
